A study of Mus musculus with 41 samples.

Results

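The genes described are 9 genes of pulmonary surfactant and of the alveolar type 2 cell, Sftpa1, Sftpb, Sftpc, Sftpd, Abca3, Lamp3, Napsa, Slc34a2 and Akp2, chosen by name out of 27962 gene names on a mouse oligonucleotide array. They were chosen with results of these lungs already known, so that their differences between exposed and control lungs are given as a description, without a test. All spots carrying one of the names were taken, which gave 17 probes of 60 bases each, 1 spot per probe. RNA came from female C57BL/6 mice (C57BL/6BomTac in the study's methods) that inhaled nano-sized titanium dioxide (nanoTiO2) at 40 mg/m3 for 1 hr per day on 11 days, killed 5 days after the last exposure, and from control mice kept in air on the same schedule. The study describes the mice as time-mated animals that did not conceive, and the labels give their age only by reference to a day of gestation. Pieces of lung were used in 7 exposed and 6 control mice, and liver in 7 exposed and 8 control mice. Each array held the RNA of 1 mouse in the Cy5 channel and a commercial mouse reference RNA, made from 11 cell lines, in the Cy3 channel, with no dye swap. The value of a probe is the log2 ratio of sample over reference. The study removed outlying samples after a cluster analysis, so the group sizes are those after that removal.

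The alveolar type 2 cell makes surfactant, the mixture of lipids and proteins that lowers surface tension at the air and liquid interface of the alveolus. The lipids and the small hydrophobic proteins SP-B and SP-C are stored in lamellar bodies and secreted, and the larger collectins SP-A and SP-D bind microbes and particles. Type 2 cells also divide and give rise to type 1 cells when the alveolar lining is damaged, and alkaline phosphatase is a long-used surface marker of them.

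Probes of each gene are shown here as the sequence of the transcript strand, 5′ to 3′. They were read from the lung files, whose coordinates are in mouse build mm7. For Abca3 the probe shown is not the one that stands for the gene below. That one is A_51_P443082, and its sequence is not shown. For probes that may lie in the untranslated end of a transcript only 30 bases are shown.
Sftpa1 (A_52_P24439, chr14:38560683-38560742): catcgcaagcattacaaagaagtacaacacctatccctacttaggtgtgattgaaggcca
Sftpb (A_51_P269134, chr6:72325120-72327691): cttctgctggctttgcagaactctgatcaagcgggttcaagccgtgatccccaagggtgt
Sftpc (A_51_P328001, chr14:65165576-65165836, bases 1 to 30): ggagagctaccactctactatatctagcat
Sftpd (A_51_P359822, chr14:38598705-38598764, bases 1 to 30): aggacaatatttggccaggagtttaaccag
Abca3 (A_51_P427317, chr17:22564837-22565299): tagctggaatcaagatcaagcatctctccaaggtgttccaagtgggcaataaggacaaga
Lamp3 (A_51_P239376, chr16:19205496-19223425): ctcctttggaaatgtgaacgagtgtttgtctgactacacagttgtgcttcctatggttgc
Lamp3 (A_52_P142807, chr16:19203700-19203759, bases 1 to 30): tcaaatactaaagcactgtaccgaaaagcc
Napsa (A_51_P146149, chr7:40759862-40760271): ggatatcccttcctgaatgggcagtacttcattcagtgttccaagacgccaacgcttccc
Slc34a2 (A_51_P221256, chr5:52444189-52444248, bases 1 to 30): agttcccaaagacccatttatgtggcatat
Akp2 (A_51_P494125, chr4:137120184-137120243, bases 31 to 60): caagacatttaAATAAAacatcccaaatat

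The capitals in Akp2 mark AATAAA, the letters of a polyadenylation signal. They were found in 2 of the 17 member probes, this one and A_51_P443082 of Abca3, and in 4.78% of the 41174 probes on the array; the reverse complement TTTATT was in 4.25%. The probes of Sftpc, Sftpd, Lamp3 and Akp2 lie on the minus strand of the genome and the others on the plus strand. The probes of Sftpb, Sftpc, Napsa, Lamp3 A_51_P239376 and Abca3 A_51_P427317 cover a genomic stretch longer than their 60 bases and therefore span an intron. The Sftpa1 probe A_51_P129491, which is not shown above, and the Sftpd probe lie 36.5 kb apart on chromosome 14. No annotation of build mm7 was used here, so exons and UTRs are not named.

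Where a gene had several probes, the one with the brightest mean Cy5 signal on the lung arrays stands for it. This was A_52_P24439 for Sftpa1, A_51_P443082 for Abca3, A_52_P142807 for Lamp3 and A_51_P221256 for Slc34a2. In the lung 15 of the 17 member probes were well above background in Cy5 on all 13 arrays. The exceptions were A_52_P255864 of Abca3 and A_52_P54647 of Lamp3, designed on cDNA clones, which were not well above background on any lung or liver array.

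Some arrays carry a fault that touches every value below. The background of each array was modelled from its spots, and on 4 lung arrays, those of exposed mice 1, 12 and 23 and control mouse 24, spots or local backgrounds that the scanner software had marked as outliers pulled the fitted mean of the Cy5 background down to between -608.6 and -18.7, against -7.04 to -4.45 on the other lung arrays. On 3 liver arrays, of control mice 24, 26 and 27, it fell to between -972.2 and -68.75. With the model fitted without the marked spots, the mean lay between -8.45 and -4.12 on all 28 arrays. Values are therefore given under the planned model over all spots and under the model without marked spots. Exposed lungs lay at positions 1 and 2 of each slide and control lungs at positions 3 and 4, so position and exposure cannot be told apart.

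Akp2, the gene now named Alpl, which encodes tissue-nonspecific alkaline phosphatase, was the only one of the 9 genes that separated exposed from control lungs in both models. With the model over all spots the exposed mice 1, 7, 12, 13, 19, 20 and 23 had log2 ratios of -0.32, -0.31, -0.31, -0.38, -0.51, -0.40 and -0.43. The control mice 24, 26, 27, 29, 32 and 34 had -0.80, -1.01, -0.85, -1.28, -1.15 and -1.24. Every exposed lung was above every control lung. When marked spots were kept out of the model, the exposed values were -0.63, -0.31, -0.72, -0.38, -0.51, -0.40 and -0.38 and the control values -0.98, -1.01, -0.85, -1.30, -1.15 and -1.24. The groups were again apart, although the exposed lungs of mice 1 and 12 moved closer to the control lungs.

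The mean log2 ratio of Akp2 was -0.38 ± 0.07 (SD, n = 7) after exposure. In control lungs it was -1.06 ± 0.20 (SD, n = 6), a difference of 0.68 with a standard error of 0.08, or 1.60-fold. Under the other model it was 0.62 with a standard error of 0.08, or 1.53-fold. Both channels went into this ratio. Their normalized signals were computed with the model over all spots only. On the log2 scale the normalized Cy5 signal was 8.76 ± 0.17 (SD) in the 7 exposed and 8.20 ± 0.22 in the 6 control lungs. The Cy3 signal of the reference was 9.14 ± 0.20 and 9.26 ± 0.16. The sample channel differed by 0.56 and the reference channel by -0.12. The Cy5 intensity before processing was 251.5, 503 and 551 (lowest, median and highest) in exposed and 168.5, 247 and 353 in control lungs, with overlapping groups.

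Of the 17 probes 1, that of Akp2, passed an adjusted p of 0.05 (limma, Benjamini-Hochberg over all probes) in the lung, against 0.0364% of all 41172 probes tested, and 1 passed without the marked spots, against 0.221%. Groups that did not overlap with exposed lungs higher were found for 0.119% of all probes with the model over all spots and for 0.274% without the marked spots. Nothing is read from these shares, since the genes were chosen with this contrast known.

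**Figure D1:**
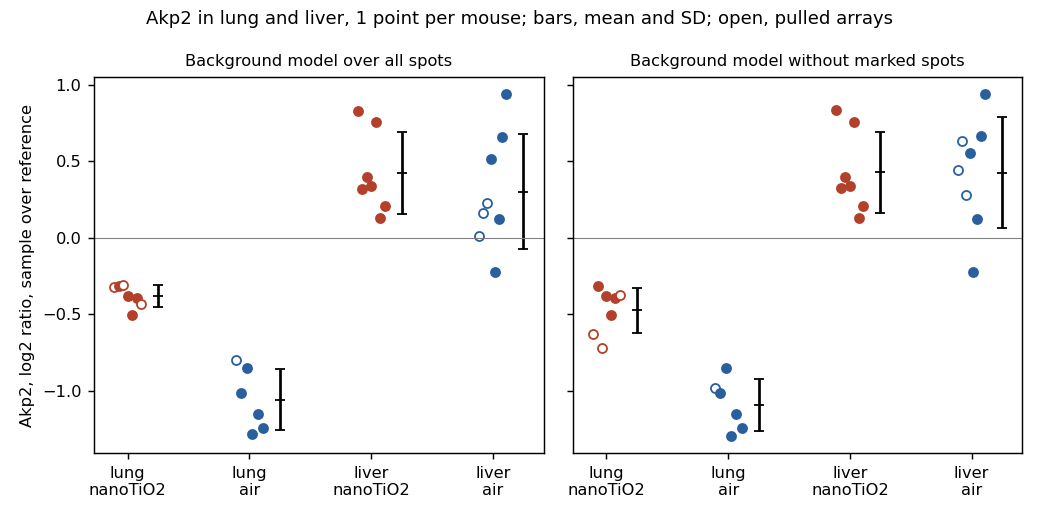
Akp2 log2 ratio of sample over reference, 1 point per mouse, under both background models; bars give the mean and SD of each group, and open points are arrays with a pulled background model. In the lung every nanoTiO2 point lies above every air point, with means of -0.38 and -1.06 on the left and -0.47 and -1.09 on the right, and in the liver the groups overlap.

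Within slides the Akp2 difference was 0.59 on slide 1, 0.76 on slide 2 and 0.75 on slide 3, from 1 or 2 exposed and 2 control lungs each. Slide 4 held exposed lungs only. Under the model without marked spots they were 0.53, 0.36 and 0.75. Slide 2 held a single exposed lung, that of mouse 12, and its difference was the one that moved by over 1.5 times with the background model.

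Other cells carry alkaline phosphatase too, and their markers are given beside Akp2. Hepatocytes are one such cell, and the mean log2 ratio of 14 hepatocyte markers ranged from 0.08 to 1.91 in exposed and from 0.33 to 0.97 in control lungs, or, without the marked spots, from 0.60 to 2.34 and from 0.33 to 0.97. Under the latter model all 14 were higher in exposed lungs, with a median difference of 0.66. None passed an adjusted p of 0.05 (limma), and 5 had an unadjusted p under 0.05, against 2919 of all 41172 probes. The exposed lungs of mice 1, 13, 19 and 23 were above every control lung, at 2.34, 1.80, 1.91 and 1.15, and those of mice 1, 13 and 19 were so under both models. Without the marked spots albumin (Alb1) reached 4.02 in exposed and 2.70 in control lungs, and fibrinogen (Fgb) 4.42 and 1.92. The differences of the 14 markers ran from 0.03 for transthyretin (Ttr) to 1.14 for Fgb. Ttr was well above background on 1 of 13 lung arrays. It stayed between -0.06 and 0.40 in the lung against 5.31 to 5.83 in the liver. Without the lungs of mice 1, 13 and 19 the Akp2 difference was 0.69 with the model over all spots and 0.64 without the marked spots, and the groups did not overlap. With the 4 exposed lungs left Akp2 passed the threshold under the second model only. Those 4 still held mouse 23, whose hepatocyte markers were above every control lung under that model. The lungs left out were chosen after the data were seen, so nothing is read from this about hepatocytes.

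Neutrophils also carry this phosphatase. The study reported a larger share of neutrophils among the cells washed from the airways of exposed mice. The markers here were read in RNA of lung pieces instead. The mean of 16 neutrophil markers ranged from 1.14 to 1.72 in exposed and from 1.24 to 1.84 in control lungs without the marked spots, and 12 of the 16 were lower in exposed lungs. Lipocalin 2 (Lcn2), an antimicrobial protein made by neutrophils and by airway epithelium, was the exception that passed the test under this model, at 2.87 to 3.33 in exposed and 1.24 to 1.55 in control lungs. With the model over all spots Lcn2 was 1.38 to 3.33 and 0.79 to 1.55, and no neutrophil marker passed. Of 7 genes listed for bone and other sources of the enzyme, 3 were not well above background on any lung array. One of the others, osteopontin (Spp1), which macrophages also make, passed without the marked spots, at 0.66 with a standard error of 0.12. The part of these cells in the Akp2 difference was not tested, and a change in the number of cells and a change in RNA per cell cannot be told apart in a piece of whole lung.

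**Figure D2:**
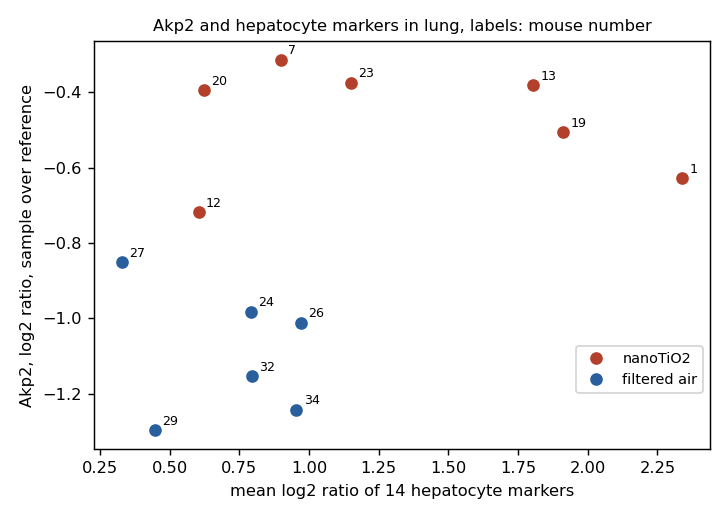
Akp2 log2 ratio (y axis) against the mean log2 ratio of 14 hepatocyte markers (x axis) in the 13 lungs, without the marked spots, with the mouse number beside each point. The exposed lungs lie between 0.60 and 2.34 on the x axis and -0.72 and -0.31 on the y axis, and the control lungs between 0.33 and 0.97 and between -1.30 and -0.85.

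The log2 ratios of the surfactant protein genes overlapped between exposed and control lungs. Sftpc encodes the lung-specific hydrophobic protein SP-C. Its log2 ratio was 4.28 at the lowest, 4.86 at the median and 5.10 at the highest in exposed lungs, and 4.59, 4.98 and 5.16 in control lungs. The groups overlapped, and the difference was -0.11 with a standard error of 0.15. The model without marked spots gave -0.09 with a standard error of 0.07.

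Sftpb encodes SP-B, without which lamellar bodies do not form. It was 2.33, 2.82 and 3.14 (lowest, median and highest) in exposed lungs and 2.65, 3.07 and 3.26 in control lungs. The difference of -0.29 with a standard error of 0.14 came down to -0.10 with a standard error of 0.07 without the marked spots. The 3 lowest exposed values, 2.33, 2.44 and 2.54, came from mice 12, 23 and 1, whose arrays had a pulled model, and without the marked spots they were 3.00, 2.84 and 3.08.

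Sftpa1, the gene of the collectin SP-A, was 4.38, 4.65 and 5.22 in exposed lungs and 4.43, 4.80 and 5.13 in control lungs. The groups overlapped, and the difference was -0.09 with a standard error of 0.15. Its second probe, A_51_P129491, gave -0.36 with a standard error of 0.39. Without the marked spots the same probes gave -0.04 and 0.12, with standard errors of 0.15 and 0.06, and so differed in sign.

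Sftpd, the gene of the other collectin, SP-D, was 6.35, 6.84 and 7.50 in exposed lungs and 6.71, 6.92 and 7.25 in control lungs. The difference was -0.02 with a standard error of 0.15, and 0.10 with a standard error of 0.12 without the marked spots. Both channels behind this small difference were higher on the exposed arrays. The normalized Cy5 signal of Sftpd was 16.61 ± 0.12 (SD) on the 7 exposed and 16.01 ± 0.11 on the 6 control arrays, and the Cy3 signal 9.70 ± 0.28 and 9.08 ± 0.25. The unprocessed Cy3 intensity ranged from 711.5 to 1007 on exposed and from 438 to 635.5 on control arrays, without overlap. The labels name the same reference RNA for all arrays, and the ratio and the Cy5 channel gave different values for Sftpd. In a fit of Cy5 alone, with the model over all spots, Sftpd was 0.64 higher in exposed lungs. Neither the normalized channel signals nor this fit was computed without the marked spots. In that fit 3 of the 17 probes passed the threshold, those of Sftpd, Akp2 and Sftpa1 A_51_P129491, against 0.267% of all probes. As above, nothing is read from this share. The cause was not tested, and the position on the slide cannot be told apart from exposure.

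**Figure D3:**
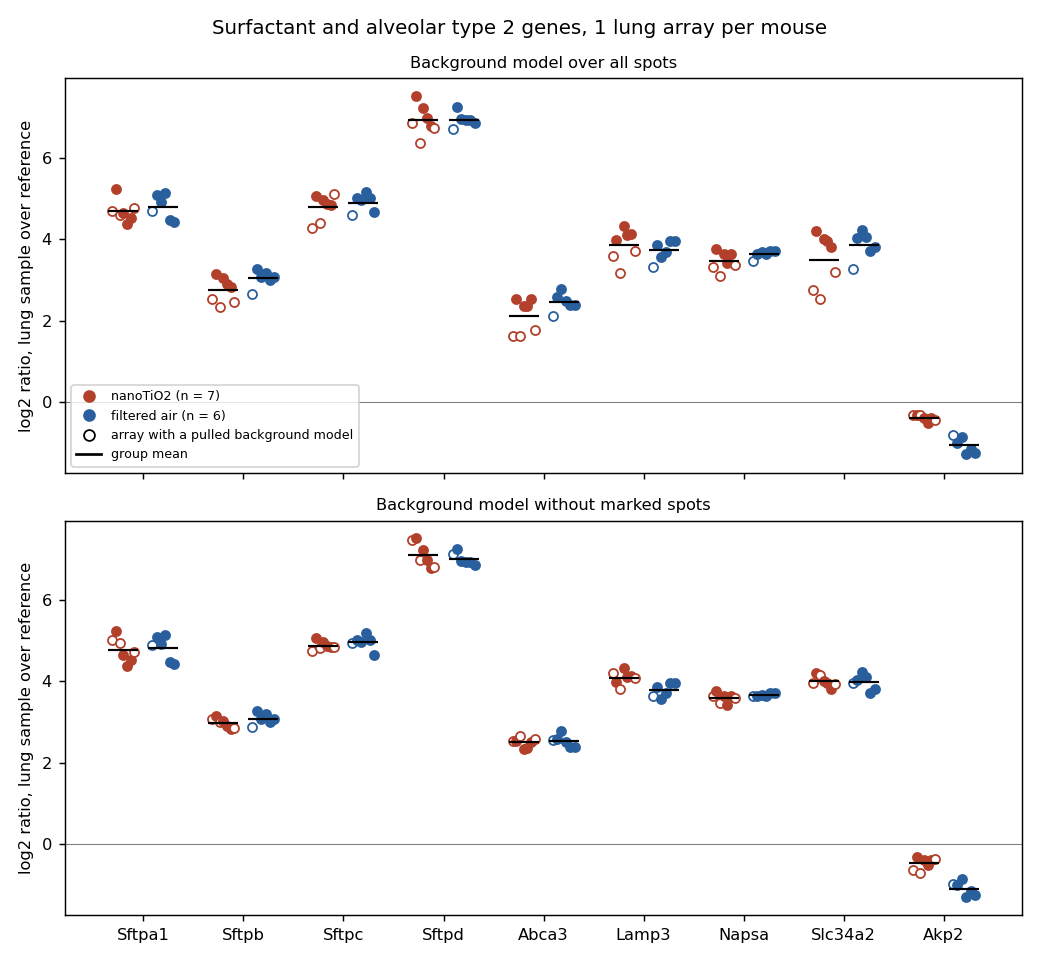
Log2 ratio of lung sample over reference for the reported probe of each gene, 1 point per mouse, with the group mean as a line, under the background model over all spots (top) and without marked spots (bottom). The open points, arrays with a pulled model, hold the lowest exposed values of Sftpb, Abca3 and Slc34a2 in the top panel and lie among the other points in the bottom panel; Akp2 is the one gene whose groups do not overlap.

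Lamp3, a membrane protein of the lamellar body also known as DC-LAMP, differed most among the remaining genes once the marked spots were out. Its log2 ratio was then 3.81, 4.10 and 4.32 (lowest, median and highest) in exposed lungs and 3.57, 3.78 and 3.95 in control lungs. Of the 7 exposed lungs 6 were above all control lungs, and the exception, at 3.81, was that of mouse 12. The difference was 0.31 with a standard error of 0.08, or 1.24-fold. The dimmer probes A_52_P104593 and A_51_P239376 gave 0.30 and 0.18. Their reference signal was not well above background on any array, so these ratios divide by background. With the model over all spots the same 3 probes gave 0.13, -0.19 and -0.55, with standard errors of 0.17, 0.35 and 0.48, so the sign depended on the background model for A_52_P104593 and A_51_P239376. No Lamp3 probe passed an adjusted p of 0.05 under either model.

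Abca3, the lipid transporter that loads phospholipid into lamellar bodies, was 1.61, 2.35 and 2.53 in exposed lungs and 2.12, 2.43 and 2.77 in control lungs (lowest, median and highest). The difference of -0.34 with a standard error of 0.18 became -0.03 with a standard error of 0.07 without the marked spots. The exposed lungs of mice 1, 12 and 23 went from 1.63, 1.61 and 1.77 to 2.53, 2.65 and 2.57. Probes A_51_P427317 and A_52_P91265 gave 0.05 each without the marked spots.

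Napsa encodes napsin A, an aspartic protease that takes part in the maturation of SP-B. It was 3.09, 3.43 and 3.76 in exposed lungs and 3.47, 3.65 and 3.71 in control lungs, with a difference of -0.17 and a standard error of 0.10. The model without marked spots gave -0.08 with a standard error of 0.05.

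Slc34a2, the sodium-dependent phosphate transporter of the apical membrane of the type 2 cell, had an SD of 0.67 among exposed lungs with the model over all spots, the largest of the 9 reported probes, and of 0.13 without the marked spots. It was 2.52, 3.82 and 4.203 in exposed lungs and 3.27, 3.91 and 4.22 in control lungs. The difference of -0.36 with a standard error of 0.28 became 0.03 with a standard error of 0.08 without the marked spots. The lowest values, 2.75 and 2.52 in exposed mice 1 and 12, became 3.96 and 4.16.

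**Figure D4:**
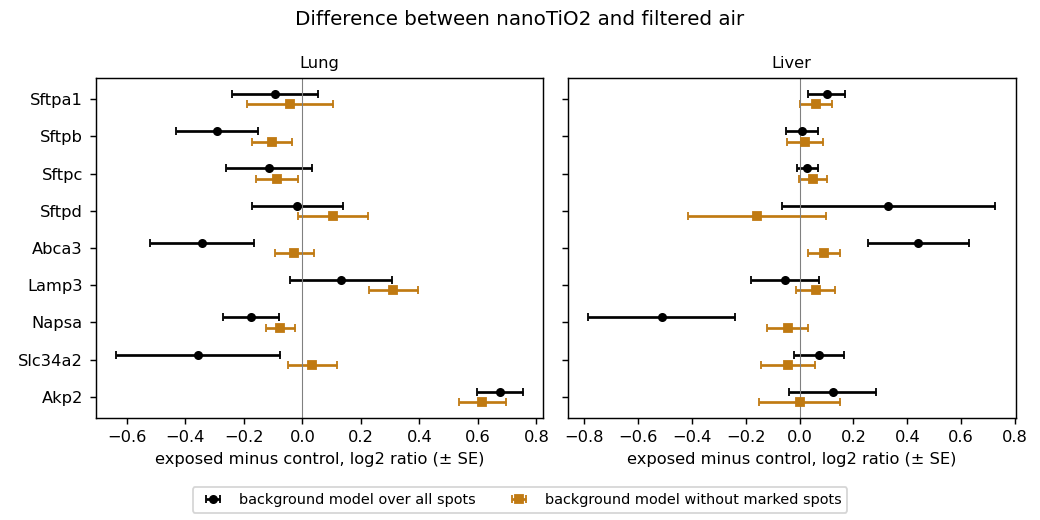
Difference between exposed and control groups in log2 ratio with its standard error, for the reported probe of each gene in lung (left) and liver (right), under both background models. In the lung Akp2 stands at 0.68 and 0.62, Lamp3 at 0.13 and 0.31, and the other 7 genes lie between -0.36 and -0.02 with the model over all spots and between -0.10 and 0.10 without the marked spots.

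Across the 17 probes the median lung difference was -0.15, against -0.01 over all probes, with 2 probes higher in exposed lungs. With the marked spots kept out it was 0.05, against 0.00, with 11 probes higher. Leaving out the 4 arrays with a pulled model gave a median of 0.03, again with 11 probes higher. The sign of the members' median thus depended on the background model.

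In the lungs the 8 genes other than Akp2 deviated together from their group means with the model over all spots. Pearson's r over the 13 lungs, after subtracting group means, had a median of 0.71 over their 28 pairs. Under the other model the median was 0.27, with a range from -0.77 to 0.78. The 8 pairs with Akp2 had a median of -0.23 and 0.17. These values are descriptions over 13 arrays that share the reference and, on some arrays, the pulled model. The genes with deviations most like those of Akp2 with the model over all spots were Gcnt1 (r = 0.91), 2010003O02Rik (0.86), Gdf5 (0.83), Dnajc16 (0.83) and Card15 (0.80), among 23350 probes well above background and measured on all 13 lungs. Of these 2010003O02Rik was also among the 5 most alike without the marked spots, at 0.90. Those most like Lamp3 were the unnamed transcript TC1511291 (0.95), BC026782 (0.95), LOC622665 (0.95), Slc23a2 (0.95) and Lass4 (0.94). Under the other model they were Ptcd2 (0.95), Psmb5 (0.93), Rbm35a (0.93), Spint1 (0.93) and Ywhab (0.92), none of which had been among the first 5. The named genes hold the highest of many r values over 13 arrays, so nothing is read from them.

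The other genes of surfactant metabolism and of the type 2 cell are given by list. The counts of these lists stand beside those of the whole array. With the model over all spots 3226 of all 41172 probes had an unadjusted p under 0.05 (limma) in the lung. The list of surfactant lipid synthesis, packaging and turnover held 45 entries, with Csf2rb1 entered more than once. With the model over all spots none passed an adjusted p of 0.05 (limma). At an unadjusted p under 0.05, 0 were higher and 5 lower, and the median difference of the list was -0.05. The highest were the fatty acid enzymes Elovl6 and Fasn, at 0.67 and 0.46 with standard errors of 0.50 and 0.39. The lowest were Gpr116, a receptor that limits the surfactant pool, at -0.58 with a standard error of 0.43, and the cholesterol transporter Abca1, at -0.56 with a standard error of 0.17. Once marked spots were out, Gpr116 was at -0.01, Abca1 at -0.28, and the list's median was 0.01. Csf2, which encodes the cytokine GM-CSF that macrophages need for the clearance of surfactant, then passed the test. It was picked out after its values were seen. Its log2 ratios were 2.01 to 2.56 in exposed and 1.04 to 1.67 in control lungs, a difference of 0.91 with a standard error of 0.10 (limma, adjusted p = 0.000308). With the model over all spots its difference was 0.25 (adjusted p = 0.82).

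Of 41 further type 2 cell genes on the array, none passed the test with the model over all spots, 2 higher and 1 lower at an unadjusted p under 0.05, 36 were lower in all, and the median difference was -0.29. The highest were Il33, an alarmin listed under the clone name 9230117N10Rik, at 0.27 with a standard error of 0.12, and the epithelial adhesion gene Tacstd1, now Epcam, at 0.15 with a standard error of 0.09. The lowest were the calcium-binding protein gene S100g, at -1.12 with a standard error of 0.52, and Bex2, at -0.90 with a standard error of 0.42. Once marked spots were out, S100g was at -0.41 and Bex2 at -0.27, the list's median was -0.03, and 1 gene passed. This was Fgfr2, a receptor for fibroblast growth factors in lung epithelium, again picked out after its values were seen, with a difference of 0.33 and a standard error of 0.06 (limma, adjusted p = 0.023), and a difference of -0.18 with the model over all spots (adjusted p = 0.85).

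Of 21 transcription factors of surfactant genes none passed under either model. With the model over all spots 0 were higher and 3 lower at an unadjusted p under 0.05, and the median was -0.20; without the marked spots it was -0.01. Elf5 and Cebpa were lowest at -0.93 and -0.53 and became -0.13 and -0.01, while Hif1a and Cebpd were highest at 0.19 and 0.17. Of 16 other genes of alkaline phosphatases and phosphate handling none passed under either model, and 2 were higher at an unadjusted p under 0.05 with the model over all spots. Their median was 0.04, and 0.01 without the marked spots. The highest were Ank, a pyrophosphate transporter, and Phex, at 0.37 and 0.36, which became 0.14 and 0.05. Xpr1, a phosphate exporter, was at -0.08 with a standard error of 0.06, and at -0.02 without the marked spots.

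Markers of other lung cells were read beside these genes. Under the model without marked spots the 13 type 1 cell markers had a median difference of -0.08, with 12 lower in exposed lungs, and 14 club cell markers -0.08. None of either list passed an adjusted p of 0.05, and 3 and 0 had an unadjusted p under 0.05, against 2919 of all 41172 probes. Of 16 alveolar macrophage markers 3 passed in the higher direction (Ctsk at 0.96, Marco at 0.57 and Msr1 at 0.52) and 2 in the lower (Siglecf at -0.70 and Ear1 at -0.48), and none passed with the model over all spots. No marker of ciliated cells, lymphocytes, endothelium, fibroblasts, heart muscle or red cells passed under either model. The part of these cells in the members' values was not tested.

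Of the 9 genes 8 were higher in lung than in liver, and Akp2 was lower. In control mice, lung against liver, 15 of the 17 probes passed an adjusted p of 0.05 (limma), 14 higher in lung and 1 higher in liver, where 48.9% of all 41172 probes passed, 26% higher and 22.9% lower in lung. Without the marked spots 16 passed, against 58.2%. The reported probes of Sftpd, Lamp3 and Napsa were well above background in Cy5 on all 8 control livers. With the model over all spots they were 5.32, 4.48 and 5.54 higher in lung in log2 ratio, with standard errors of 0.38, 0.15 and 0.29. Adjusted p-values were 2.4e-08 or lower (limma). Without the marked spots the control means in lung and liver were 7.00 and 2.11 for Sftpd. They were 3.78 and -0.87 for Lamp3, and 3.67 and -2.38 for Napsa. With the model over all spots the same means were 6.93 and 1.61, 3.72 and -0.76, and 3.64 and -1.90. For Sftpd the reference was well above background on 1 of 15 liver arrays, so its liver ratio divided by values near background. Sftpa1, Sftpb and Slc34a2 were well above background on 3, 3 and 4 of the 8 control livers and Sftpc on none, so the liver side of their ratios was largely background, and no fold is given for them from the ratio. Control lung and liver ratios did not overlap for any of these 7 genes, as for 17% of all probes in this direction. Abca3 was 0.95 higher with a standard error of 0.21 (limma, adjusted p = 0.0017), and 0.68 with a standard error of 0.07 without the marked spots. Its probes A_52_P91265 and A_51_P427317, also above background on all these arrays, differed less, by 0.37 and 0.18 with standard errors of 0.13 and 0.07, and without the marked spots by 0.16 and 0.13. The signals of the reported probe overlapped between the tissues, at an unprocessed Cy5 intensity of 1005 to 2246 in liver and 1327 to 2783 in lung.

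Akp2 ran the other way. Its log2 ratio was -0.22 at the lowest, 0.19 at the median and 0.94 at the highest in control livers, above all control lungs, as for 12.2% of all probes in this direction. The difference was -1.36 for lung minus liver with a standard error of 0.16 (limma, adjusted p = 5.4e-06). Without the marked spots it was -1.52. Tissue and array run were the same split, since lung and liver arrays were read with different versions of the scanner software, so they cannot be told apart.

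The reference channel differed between the tissues for the surfactant genes. The cell line reference was well above background on all 13 lung arrays and on at most 1 of 15 liver arrays for the reported probes of Sftpa1, Sftpb, Sftpc, Sftpd and Slc34a2, that is for 5 of the 9 genes, where 80 of 41174 probes (0.194%) showed this pattern. For Sftpc the unprocessed Cy3 intensity ranged from 17220 to 34030 on lung arrays and from 29 to 41 on liver arrays, while Cy5 ranged from 349100 to 628300 and from 84 to 94.5. For Sftpa1 the reference ranged from 2649 to 4954 on lung and from 35 to 45.5 on liver arrays. For the other 4 genes the reference was measured in both tissues. It ranged from 226 to 353 on lung and 215 to 440 on liver arrays for Abca3, from 402 to 661.5 and 462 to 725 for Lamp3, from 1000 to 1332 and 719 to 981.5 for Napsa, and from 432 to 634 and 263 to 394 for Akp2. The cause was not tested.

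**Figure D5:**
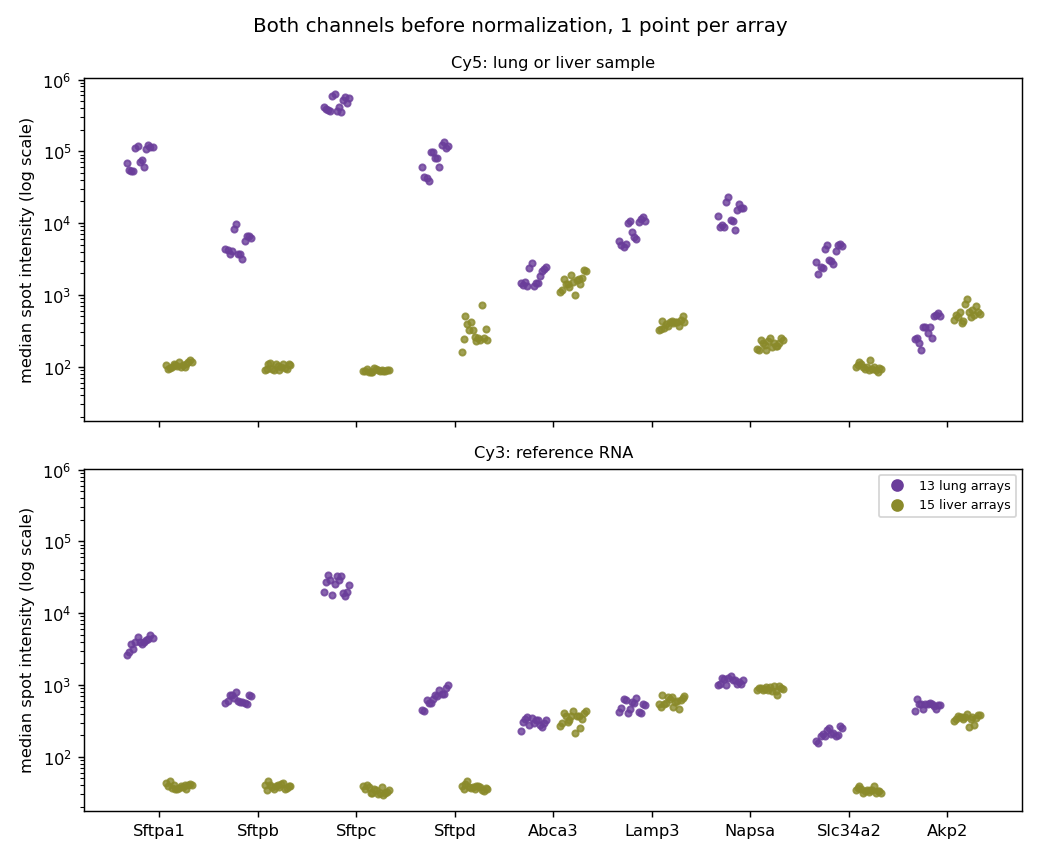
Median spot intensity before normalization (log axis) of the sample channel Cy5 (top) and the reference channel Cy3 (bottom) for the reported probe of each gene on 13 lung and 15 liver arrays, with control arrays to the left of exposed arrays within each tissue. The reference signals of Sftpa1, Sftpb, Sftpc, Sftpd and Slc34a2 are high on lung and near background on liver arrays, as for Sftpc at 17220 to 34030 and 29 to 41.

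These reference signals enter the lung ratios of the 5 genes, in the comparison of exposed with control lungs too, and how far they alter them was not tested. In the Cy5 signal, normalized between the 14 control arrays, Sftpc was at least 5820-fold higher in lung. This is a lower bound because no liver array was well above background for it. The Cy3 signal also entered this normalization, so the bound is not free of the reference. Tissue and array run cannot be told apart here either. The mean Cy5 signal of Sftpa1 on the log2 scale was 16.5 in lung and 6.82 in liver, where 3 of 8 arrays measured it. Sftpd, measured in Cy5 on all control livers, was 226-fold higher in lung in Cy5 and 40-fold in the ratio. Its reference was near background on the liver arrays. For Napsa and Lamp3, with a reference signal in both tissues, the ratio and Cy5 were 46.5-fold and 54-fold higher in lung for Napsa and 22.3-fold and 16.6-fold for Lamp3. The Lamp3 probes A_51_P239376 and A_52_P104593, not above background on any control liver array, were at least 5.88-fold and 2.69-fold higher in lung. All folds in this paragraph rest on the background model over all spots. That model was pulled on the control livers of mice 24, 26 and 27 and the control lung of mouse 24. Cy5 folds without the marked spots were not computed.

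In the liver exposure left no member past the threshold. None of the 17 probes passed an adjusted p of 0.05 (limma), as none of all 41174 probes did (0% called), and 3 had an unadjusted p under 0.05, against 8.71% of all probes, or 1 without the marked spots, against 2.44%. Akp2 was 0.43 ± 0.27 (SD) in the 7 exposed livers and 0.30 ± 0.38 in the 8 control livers, a difference of 0.12 with a 95% confidence interval from -0.22 to 0.47, and 0.00 from -0.32 to 0.32 without the marked spots. Abca3 differed by 0.44 and Napsa by -0.51 with the model over all spots. Without the marked spots, which moved the control livers of mice 24, 26 and 27, the differences were 0.09 with an interval from -0.04 to 0.22 and -0.04 with an interval from -0.21 to 0.12. Whether the effect of exposure on Akp2 differed between lung and liver was not tested.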

How the data were processed

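The members, the lists of other genes and the tests were chosen with earlier results of these data known. Intensity values of every spot in both channels were deposited as the scanner software gave them (Agilent Feature Extraction 9.5.3.1 for lung and 10.1.1.1 for liver), not normalized, and a table of processed log2 ratios made with LOWESS. Median intensities were background corrected with limma's normexp (offset 50), fitted over all spots, or over spots with neither spot nor local background marked and applied to all spots. Arrays were normalized by loess with control spots at weight 0, and marked spots were left out. Log2 ratios were averaged by probe and tested with lmFit and eBayes (limma 3.58.1, R 4.3.3) within each tissue or over control samples, with Benjamini-Hochberg adjustment over all probes. No member probe was saturated. Member probes were named by every probe of every member; of the lists, genes past the threshold and the 2 highest and lowest were named, with the exceptions stated; 1 gene that this rule names is not reported here. Of the probes, 22951 were matched by accession to a current symbol. The fits were tested on simulated data. Intervals are 95% confidence intervals of the difference between group means, with standard errors from the variation between mice.

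The alternatives were no background correction, the model without marked spots, the scanner's processed signals, median centering, the authors' table, Cy5 alone, a filter on dim probes, slide as a block and each array left out. Lung and liver arrays share mice: 6 control mice had both, and their deviations from the group means correlated at -0.06 to 0.33. The miRNA arrays were not used here. Arrays in one group were from separate mice, and the number of arrays limits the precision.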

Additional observations from a re-analysis of the deposited data

Results flagged for a closer look

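Single livers and lungs stood apart from their group for 3 of 36 gene and group combinations with the model over all spots, in that its gap to the nearest other sample, as a share of the group's range, was above Dixon's 95% critical value. By construction chance flags about 1 in 20 groups at this level. The Sftpd log2 ratio of the liver of exposed mouse 13 was 3.29, against 1.56 to 1.94 in the other 6 exposed livers. It was 3.29 without the marked spots too. The Slc34a2 log2 ratio of the liver of exposed mouse 1 was 0.69, against 0.07 to 0.25 in the others. This Slc34a2 probe was well above background in Cy5 on 2 of the 7 exposed livers. For Sftpd and Slc34a2 the reference was not well above background on any exposed liver, so these ratios divide by background. The Napsa log2 ratio of the lung of control mouse 24, an array with a pulled background model, was 3.47, against 3.63 to 3.71 in the other 5 control lungs, and was 3.64 without the marked spots.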

How the results depend on the processing

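As a description of a gene chosen with this contrast known, the lung difference of Akp2 ran from 0.49 in Cy5 alone to 0.81 with the scanner's processed signals. The number of member probes past the threshold was 1, but 0 after median centering and without the 3 arrays high in hepatocyte markers, and 3 in Cy5 alone. Of all probes, 15 passed in the main setting, 85 with no background correction, 91 without the marked spots, 74 with processed signals, 0 after median centering (303 at an unadjusted p under 0.05, limma), 69 in the authors' table, 110 in Cy5 alone and 6 when slide entered as a fixed block. Settings chosen after seeing the data gave 42 without the arrays with a pulled model, 101 with the marked spots out and slide as a block, 2 without the arrays high in hepatocyte markers, and 38 without both those arrays and the marked spots. Leaving out 1 lung array at a time gave 10 to 21 probes, with 21 reached without control mouse 24 and 10 without control mouse 27, and 1 member probe each time.

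In control lung against control liver, the fit paired by mouse (replicate block) gave 18526 probes and 15 member probes past the threshold, against 20134 and 15; it changed no call's direction, and leaving out 1 array gave 18648 to 20901 probes and 13 to 15 member probes. Exposed and control groups of one tissue share no mouse, so the exposure comparisons have no paired fit.

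In the liver no member passed under any setting, and slide as a fixed block gave 1 probe. Signs there depended on the setting. With no background correction the differences were -0.0325 for Sftpb, -0.12 for Sftpd, 0.0523 for Lamp3 and -0.13 for Slc34a2. Without the marked spots they were -0.16 for Sftpd, 0.0598 for Lamp3 and -0.043 for Slc34a2. With processed signals they were -0.15 for Sftpd, 0.0912 for Lamp3, -0.735 for Slc34a2 and -0.0051 for Akp2. Median centering gave 0.00 for Sftpb and 0.11 for Lamp3. The authors' table gave -0.0336 for Sftpb, -0.11 for Sftpd, 0.0578 for Lamp3 and -0.13 for Slc34a2. Cy5 alone gave -0.165 for Sftpd, 0.0451 for Lamp3, -0.0275 for Slc34a2 and -0.0514 for Akp2. A fixed block for slide gave 2e-04 for Lamp3. Without the pulled arrays they were -0.0038 for Sftpb, -0.15 for Sftpd and 0.12 for Lamp3, and with the marked spots out and slide as a block -0.22 for Sftpd, 0.0862 for Lamp3 and -0.0162 for Slc34a2. Leaving out 1 liver array gave -0.0155 to 0.0452 for Sftpb, -0.10 to 0.0321 for Lamp3 and -0.0069 to 0.10 for Slc34a2. The causes were not tested. Probes not well above background, and the number of arrays, limit these values.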
